A study of Mus musculus with 8 samples.

Results

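The 9 genes described here are Dppa2, Dppa4, Dppa5a, Khdc3, Ooep, Khdc1a, Obox6, Pramel6 and Pramel7, which are known from the mouse oocyte and the preimplantation embryo and were read in mouse embryonic stem (ES) cells. They were taken from a list of names and were chosen from the counts of these same libraries across the 4 groups, so their levels and changes are given as a description, without a test. All 9 passed the filter on low counts, out of 10311 genes that passed it and 17011 genes with at least 1 read.

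The study's 8 libraries form 4 groups of 2, all from V6.5, an ES cell line from a C57BL/6 and 129 hybrid, grown in 2i medium (inhibitors of MEK and GSK3) on gelatin. In the OCT4-FKBP line, whose OCT4 protein carries an FKBP tag that lets a dTAG molecule send it for degradation, cells received dTAG (given in the labels as dTag9) or DMSO for 24 h. In the parental line without the tag (WT), LIF had been withdrawn for 5 days or was kept at its normal level. The labels give no LIF state for the OCT4-FKBP cells, no clone number, and nothing that says whether the 2 libraries of a group came from separate cultures. The spread between them may therefore be technical.

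Libraries held 7221451 to 11447468 counted reads of 40 bases from poly(A)-selected RNA, and replicate libraries correlated at 0.987 to 0.989 across genes in log2 CPM (counts scaled to a common library size). Pou5f1, the gene of OCT4, had 84.6 and 90.2 CPM with dTAG and 77.5 and 77.8 CPM with DMSO (log2 fold change 0.17, SE 0.10, edgeR adjusted p = 0.18, and 0.048 without WT LIF replicate 2 or 0.027 with the OCT4-FKBP libraries alone). These values read the transcript, and the protein was not analysed here. In the WT line Pou5f1 had 205 and 170 CPM without LIF and 425 and 336 CPM with LIF. Of its 2 RefSeq accessions one had 14341 reads and the other 4 over the 8 libraries, and reads that fit both are in neither. Summed over a list of 14 naive ES cell genes that includes Pou5f1, the level was 2341 and 2369 CPM with dTAG and 7337 and 7245 CPM with DMSO, and 1962 and 1937 CPM without LIF and 7271 and 7465 CPM with LIF. Tfcp2l1 held 3599 and 3548 CPM of the sum with DMSO. Tdgf1 held 1143 and 1136 CPM of that without LIF, and had 664 and 761 CPM with LIF. Of the 12 list genes tested at an edgeR adjusted p of 0.05, 10 fell with dTAG and 0 rose, where 40.5% of all genes passed. Without LIF 11 fell and 1 rose, where 68.4% passed. Esrrb had 0.136 CPM in WT no LIF replicate 2 and 0 elsewhere. Reads that fit several accessions are not counted, so these values are not read as absence of Esrrb. Nanog, on that list, had 0 reads in every library and has 4 accessions, so its level cannot be read here.

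As background, Dppa2 and Dppa4 are chromatin proteins that act together and promote genes of the 2-cell stage in mouse ES cells. Dppa5a, Khdc3, Ooep and Khdc1a carry KH-type folds, a fold of RNA-binding proteins, and Khdc3 (also called Filia) and Ooep (also called Floped) belong to the subcortical maternal complex, a protein assembly under the oocyte membrane that early cleavage needs. Obox6 belongs to the oocyte-specific homeobox family. Pramel6 and Pramel7 belong to the PRAME-like leucine-rich repeat family, and in mouse ES cells PRAMEL7 promotes the degradation of UHRF1, a cofactor of maintenance DNA methylation.

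Several of these genes have close copies, which bears on how their counts can be read. The coding sequences of Khdc1a and Khdc1c, neighbours on chromosome 1, were aligned over 501 bases and 500 were identical. The only difference was T416C, counted from 1 at the first coding base, with the Khdc1a base first. The stretch of 60 coding bases around it, from position 386 to 445 of both GENCODE vM21 transcripts, is shown here to make the likeness visible, with the base that differs in capitals.
Khdc1a: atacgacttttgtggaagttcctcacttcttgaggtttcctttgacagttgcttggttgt
Khdc1c: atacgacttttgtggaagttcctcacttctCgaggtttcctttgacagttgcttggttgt
Khdc1b, the next copy along, matched Khdc1a at 93.2% of 381 aligned coding bases.

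To put a size on this, every window of 40 bases (1 read) of each member's transcript was looked for, letter for letter, in the GENCODE transcripts of genes at other positions. Such windows made up 50.3% of Khdc1a, of which Khdc1c alone held 47.9% of the transcript's windows and Khdc1b 6.62%. They made up 48.4% of Dppa5a, spread over 10 genes, most of them pseudogenes, with Pigp and the pseudogene Gm15310 at 16.7% each. Dppa2 had 39.7% of its windows in 8 other genes, led by the processed pseudogenes Gm9788 (36.5%) and Gm8023 (25.6%), and Dppa4 had 41.0%, led by Gm14058 (28.3%). Obox6 had 7.89%, nearly all in the pseudogene Obox6-ps1, while Pramel7 had 2.42%, Ooep 2.33%, and Khdc3 and Pramel6 0%. A read from a shared window aligns to several places, and alignments marked as not unique were set apart in the deposited tables. The search used annotated transcripts only, so copies elsewhere in the genome are not in these shares, and it used GRCm38 where the counts used mm9.

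**Figure D1:**
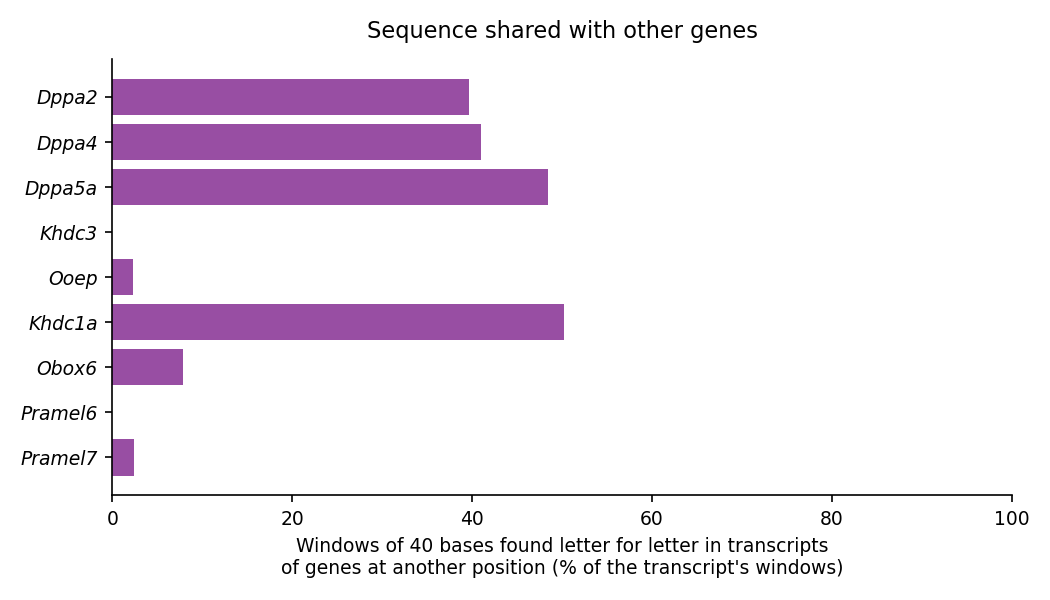
Share of each gene's 40-base windows (x axis, percent) that occur letter for letter in annotated transcripts of genes at another position; for genes with several accessions the bar is the accession with the most reads. Khdc1a, Dppa5a, Dppa4 and Dppa2 lie between 39.7% and 50.3%, and the other 5 genes at 7.89% or under.

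The accessions of a gene can also hide reads from each other, because a read that fits 2 accessions is given to neither. All 506 reads of Dppa4 came from 1 of its 2 accessions, which shares 82.9% of its windows with the other, and all 3169 reads of Khdc3 came from 1 of 2 accessions, with 70.2% shared. Pramel6 has 4 accessions and only 25 and 26 reads, from 2 of them, over all 8 libraries. For these 3 genes the CPM values are a part of the level and are compared between groups only, never with other genes.

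The first comparison asked what 24 h of dTAG did to the 9 genes in the OCT4-FKBP line. Of the 9, 6 were at least 2-fold lower with dTAG than with DMSO with no overlap between the groups: Dppa5a, Khdc3, Ooep, Obox6, Pramel6 and Pramel7. Among all genes tested 8.61% met that description. Khdc1a went the other way and was 5.27-fold higher, a description that 7.07% of all genes met in that direction. Dppa2 and Dppa4 moved by less than 2-fold, one up and the other down. Fewer cells that express a gene and less RNA per cell cannot be told apart in such bulk libraries.

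The second comparison asked what 5 days without LIF did in the WT line. Of the 9, 7 were at least 2-fold lower without LIF than with it, again with no overlap, where 17.5% of all genes were. None of the 9 was 2-fold higher, where 16.8% of all genes were. Khdc1a, Obox6 and Pramel6 had 0 reads in both libraries without LIF. Dppa2 and Dppa4 were the genes that moved by less than 2-fold.

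**Figure D2:**
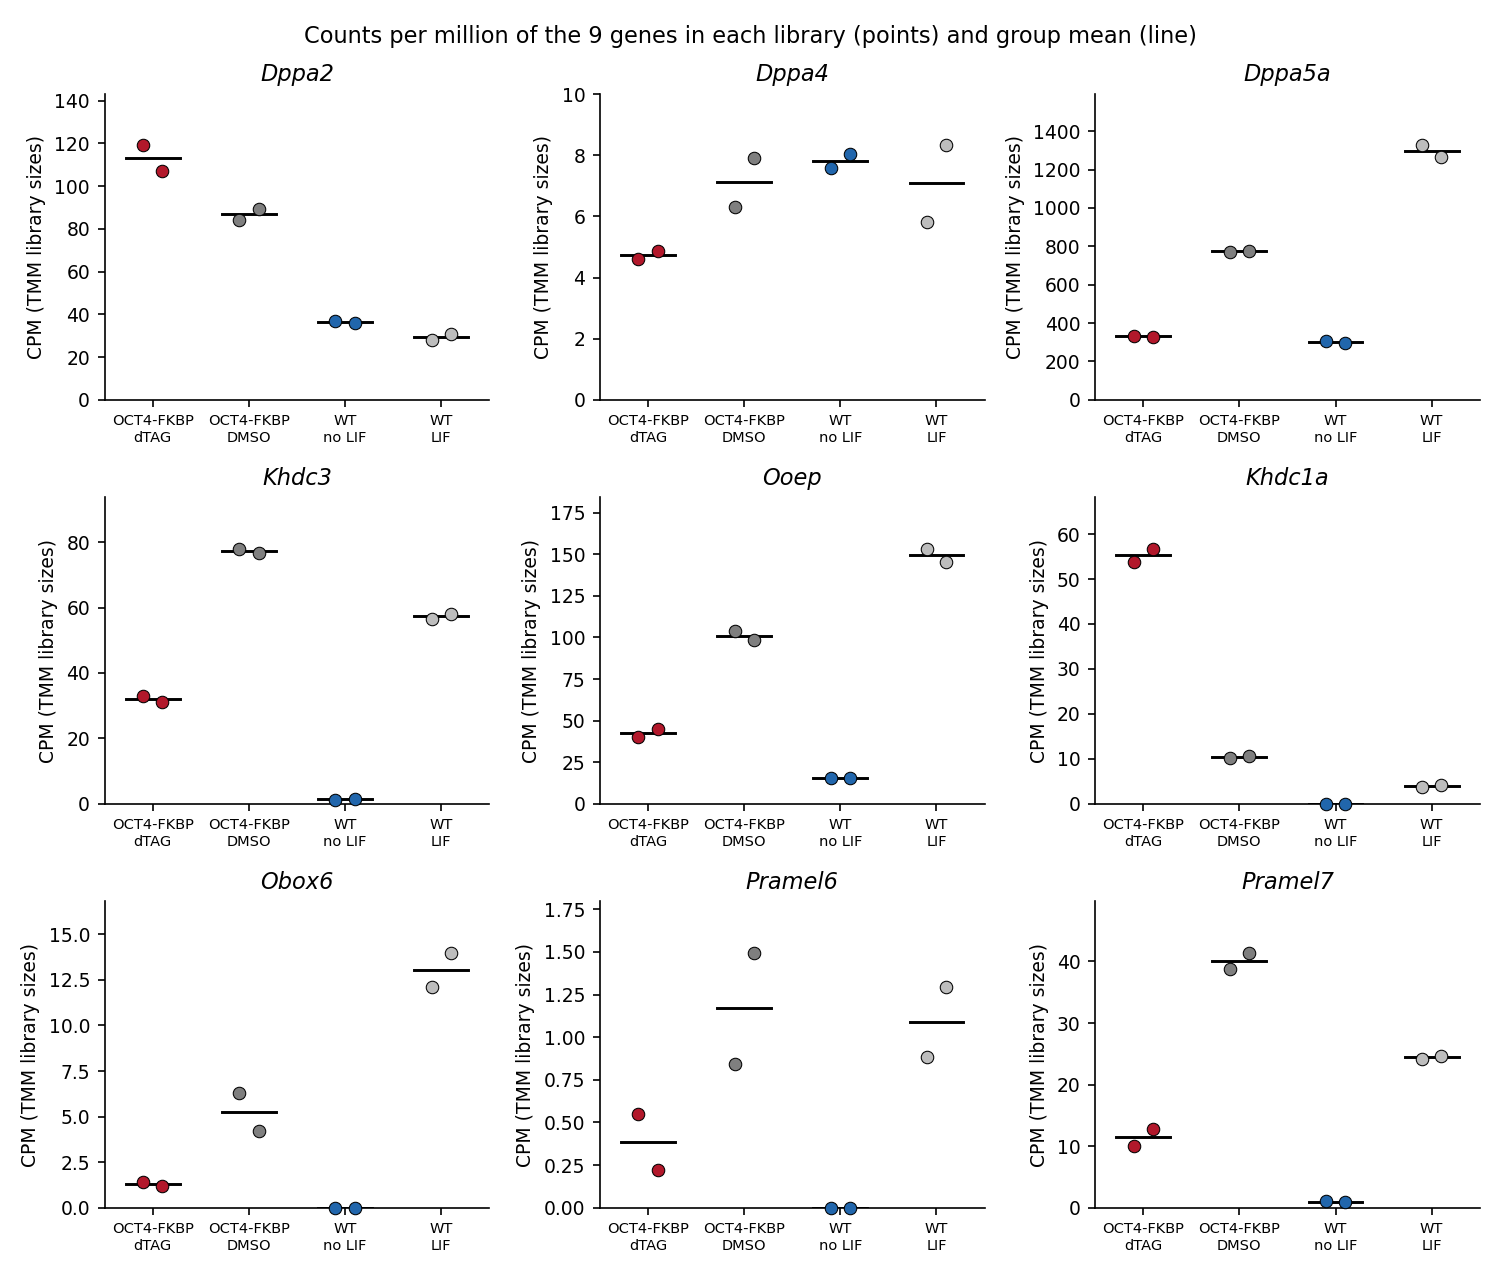
CPM of each gene (y axis, linear from 0, own scale for each gene) in the 2 libraries of each group (points), with the group mean (line). Khdc1a is highest with dTAG at 53.8 and 56.8 CPM and at 0 without LIF, while Dppa5a, Ooep and Obox6 are highest in WT cells with LIF, and Khdc3 and Pramel7 in OCT4-FKBP cells with DMSO.

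Of the Dppa genes, which were named as developmental pluripotency associated genes and are not all of one family, Dppa5a had the highest counts. It had 333 and 327 CPM with dTAG and 771 and 777 CPM with DMSO, a log2 fold change of -1.23 (SE 0.05). In the WT line it had 307 and 298 CPM without LIF and 1331 and 1266 CPM with LIF, a log2 fold change of -2.10 (SE 0.05). In both comparisons the groups lay far apart.

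Dppa2 had 119.5 and 107.3 CPM with dTAG and 84.4 and 89.4 CPM with DMSO, a log2 fold change of 0.38 (SE 0.08). It had 37.0 and 35.9 CPM without LIF and 28.2 and 30.8 CPM with LIF, a log2 fold change of 0.31 (SE 0.10). Both libraries of the treated group were above both of the other in each comparison, by 1.30-fold and 1.24-fold. The wider gap was between the lines, since all 4 OCT4-FKBP libraries lay above all 4 WT libraries.

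Dppa4, the partner of Dppa2, had 4.60 and 4.88 CPM with dTAG and 6.32 and 7.92 CPM with DMSO, a log2 fold change of -0.61 (SE 0.23, 95% interval -1.24 to 0.01). Without LIF it had 7.60 and 8.04 CPM, inside the range of the LIF libraries at 5.83 and 8.35 CPM. The difference without LIF was 0.16 on the log2 scale (SE 0.20) and turned to -0.11 when WT LIF replicate 1 was left out. At 42 to 90 reads in a library Dppa4 is read much less precisely than Dppa2.

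Of the maternal complex genes, Khdc3 had 33.1 and 31.1 CPM with dTAG and 78.1 and 76.7 CPM with DMSO, a log2 fold change of -1.27 (SE 0.09). In the WT line it had 1.28 and 1.36 CPM without LIF, from 15 and 10 reads, and 56.5 and 58.1 CPM with LIF, from 640 and 494 reads. That is 43.2-fold lower (log2 fold change -5.43, SE 0.16), the largest fold change without LIF among the members that still had reads there.

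Ooep had 40.2 and 45.1 CPM with dTAG and 103.6 and 98.4 CPM with DMSO, a log2 fold change of -1.24 (SE 0.08). It had 15.2 and 15.5 CPM without LIF and 153.4 and 145.6 CPM with LIF, a log2 fold change of -3.29 (SE 0.09). Dppa5a, Khdc3 and Ooep thus lay between 2.34-fold and 2.41-fold lower with dTAG, while without LIF their fold changes ran from 4.30-fold to 43.2-fold lower.

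Khdc1a, a gene of oocytes and 2-cell embryos, was the one member that was more than 2-fold higher with dTAG. It had 492 and 512 reads with dTAG (53.8 and 56.8 CPM) and 73 and 121 reads with DMSO (10.2 and 10.6 CPM), a log2 fold change of 2.40 (SE 0.12). In the WT line it had 0 and 0 reads without LIF and 42 and 35 reads with LIF (3.71 and 4.12 CPM). Set against a floor of 3 reads over the group, that is at least 24.7-fold lower. No library of one group overlapped another, and the 4 groups ran, low to high, from WT without LIF to WT with LIF, OCT4-FKBP with DMSO and OCT4-FKBP with dTAG.

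Its copies went the same way at lower counts. Khdc1c had 7.33 and 5.66 CPM with dTAG and 1.97 and 1.58 CPM with DMSO (log2 fold change 1.90, SE 0.30, edgeR adjusted p = 1.1e-05), and 0 reads without LIF against 7 with LIF. Khdc1b had 26 reads with dTAG and 5 with DMSO (log2 fold change 2.35, SE 0.61, edgeR adjusted p = 0.0031). Khdc1b reached the filter on low counts only through the libraries with dTAG, so its higher value there is a description only. It had 0 reads without LIF against 5 with LIF. Against the same floor the copies were at least 2.24-fold and at least 1.60-fold lower without LIF. The dTAG call of Khdc1b was lost in DESeq2 and without dTAG replicate 2 or DMSO replicate 2, with an adjusted p of up to 0.10, and its LIF call was lost in DESeq2 and without any 1 of the 4 WT libraries (adjusted p up to 0.15). The LIF call of Khdc1c was lost without WT no LIF replicate 1 (adjusted p = 0.070). The sequences shown above are nearly the same, and whether reads of one copy were counted under another was not tested.

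Obox6 had 13 and 11 reads with dTAG (1.42 and 1.22 CPM) and 45 and 48 reads with DMSO (6.32 and 4.22 CPM), a log2 fold change of -1.93 (SE 0.33). In WT cells it had 0 and 0 reads without LIF and 137 and 119 reads with LIF (12.1 and 14.0 CPM), which is at least 82.0-fold lower. The groups did not overlap in either comparison. Its family relatives Obox1, Obox2, Obox3, Obox5 and Obox7 had 0 reads in all 8 libraries. Obox1 and Obox2 agree at 98.5% of 456 aligned coding bases and Obox5 and Obox7 at 96.0% of 657, so a count of 0 says little about them.

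Pramel7 had 10.1 and 12.9 CPM with dTAG and 38.7 and 41.5 CPM with DMSO, 3.51-fold lower (log2 fold change -1.81, SE 0.13). It had 1.02 and 0.954 CPM without LIF, from 12 and 7 reads, and 24.2 and 24.7 CPM with LIF, 24.2-fold lower (log2 fold change -4.60, SE 0.22). Both libraries of the treated group lay below both of the other by a wide margin in each comparison.

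Pramel6, its neighbour on chromosome 2, was near the limit of detection. It had 5 and 2 reads with dTAG and 6 and 17 reads with DMSO, a log2 fold change of -1.64 (SE 0.62, 95% interval -3.36 to 0.07) that ran from -2.41 without dTAG replicate 1 to -1.11 without DMSO replicate 2. It had 0 and 0 reads without LIF and 10 and 11 reads with LIF, at least 6.72-fold lower. The groups did not overlap in CPM, but the dTAG and DMSO libraries nearest each other were at 0.547 and 0.842 CPM.

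**Figure D3:**
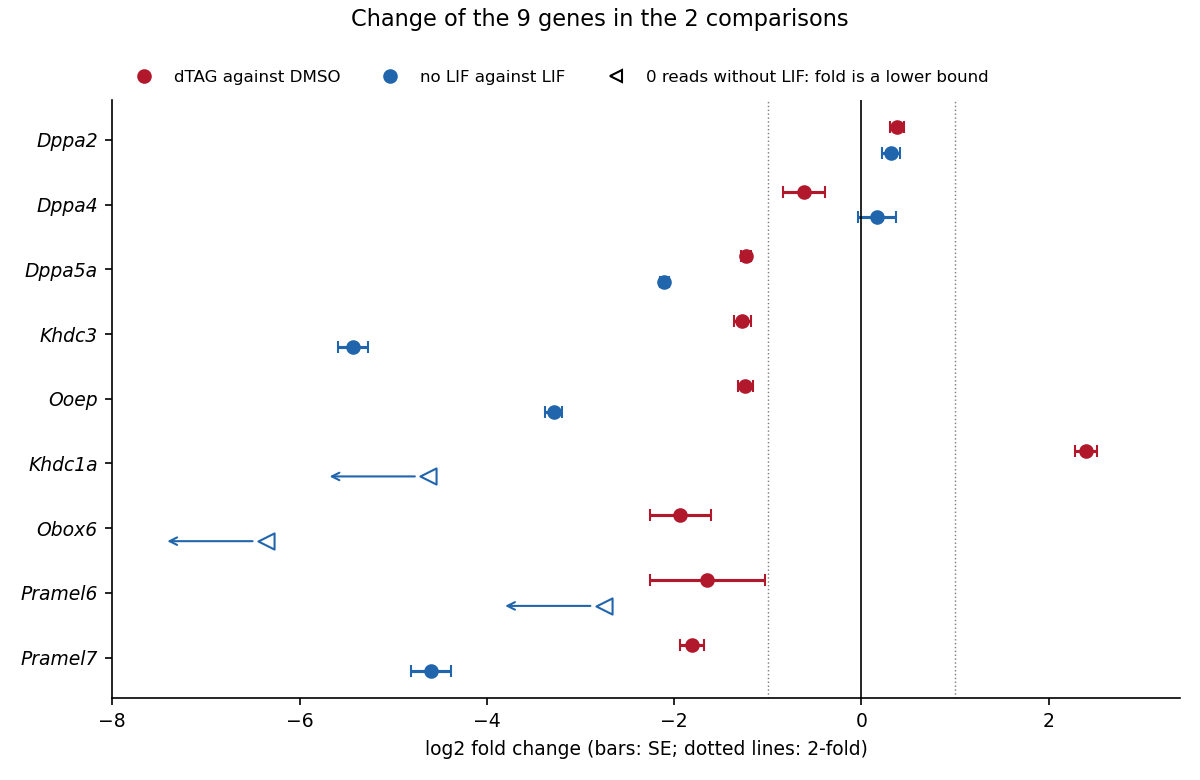
Log2 fold change (x axis) of each gene for dTAG against DMSO (red) and no LIF against LIF (blue), with SE; open triangles with an arrow mark genes with 0 reads without LIF, drawn at their lower bound. Khdc1a lies at 2.40 with dTAG and at or beyond 24.7-fold lower without LIF, while Dppa2 lies just above 0 in both.

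The responses to dTAG and to LIF withdrawal were set against each other in one fit, as the log2 fold change with dTAG minus that without LIF. They come from separate libraries, but differ in line and duration as well as in treatment. Across all genes 55% passed the test of this difference. For the members that had reads in every group it was 4.16 for Khdc3 (SE 0.21), 2.78 for Pramel7 (SE 0.30), 2.04 for Ooep (SE 0.13) and 0.87 for Dppa5a (SE 0.07), so each was lowered less with dTAG than without LIF. For Dppa2 it was 0.07 (SE 0.12, 95% interval -0.28 to 0.41) and for Dppa4 -0.78 (SE 0.30, 95% interval -1.62 to 0.07), and both intervals include 0. Khdc1a was the one member whose groups did not overlap in either comparison and whose directions were opposite, and its difference has no finite size because of the 0 reads without LIF.

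The lines also differed before any treatment was compared. In OCT4-FKBP cells with DMSO against WT cells with LIF, Dppa2 was 2.96-fold and Khdc1a 2.69-fold higher, where 4.6% of all genes were at least 2-fold higher without overlap. Obox6 was 2.55-fold lower, where 7.54% of all genes were at least 2-fold lower without overlap. The transcript of the targeted gene, Pou5f1, was 4.91-fold lower (log2 fold change -2.30, SE 0.09, edgeR adjusted p = 3.5e-16). The means were 86.9 ± 3.6 and 29.5 ± 1.9 CPM for Dppa2, 10.4 ± 0.28 and 3.91 ± 0.29 CPM for Khdc1a, and 5.27 ± 1.5 and 13.0 ± 1.3 CPM for Obox6 (OCT4-FKBP with DMSO and then WT with LIF; SD, n = 2 each). Tag, clone, DMSO and culture cannot be told apart in this comparison. The other log2 fold changes were 0.72 for Pramel7 (SE 0.11), 0.43 for Khdc3 (SE 0.08), -0.57 for Ooep (SE 0.07) and -0.75 for Dppa5a (SE 0.05), and Dppa4 and Pramel6 overlapped between the lines.

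Levels of different genes can be compared only per length, and 5 members had 1 accession and a transcript length that fits their gene. In WT cells with LIF, Dppa5a stood at 2097 ± 74 RPKM (CPM per kilobase of transcript), Dppa2 at 15.1 ± 0.97, Pramel7 at 13.1 ± 0.20, Obox6 at 9.71 ± 1.0 and Khdc1a at 1.97 ± 0.15 (SD, n = 2 each). With dTAG the order on this scale was Dppa5a at 533 ± 7.1, Dppa2 at 58.2 ± 4.5, Khdc1a at 27.8 ± 1.0, Pramel7 at 6.16 ± 1.1 and Obox6 at 0.983 ± 0.11. Khdc1a was the lowest of the 5 in WT cells with LIF and the third highest with dTAG. In WT cells with LIF the libraries of Dppa2, at 14.5 and 15.8, lay above those of Pramel7, at 13.0 and 13.3, by little more than the spread of Dppa2 itself. Reads in the shared windows described above are not in these values, which touches Dppa5a, Dppa2 and Khdc1a most.

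The members most alike over the 8 libraries were Khdc3 and Pramel7, whose centred log2 CPM differed by 0.42 (root mean square), then Pramel6 and Pramel7 at 0.53 and Dppa5a and Ooep at 0.57. A count of 0.5 was added before the log, and for Pramel6, Khdc1a and Obox6, with 0 reads without LIF, the values there and so these distances depend on it. Dppa2 and Dppa4, the partners, differed by 1.04. Among 7049 other genes with at least 5 mean CPM, the genes nearest to Khdc3 were Fam25c at 0.17 and Klf4 at 0.19, a naive pluripotency factor that had a mean of 271 CPM with dTAG, 585 with DMSO, 13.1 without LIF and 396 with LIF. Nearest to Pramel7 were Zp3 at 0.21, a gene of the egg coat, and Tfcp2l1 at 0.25, another naive pluripotency factor. Nearest to Ooep were Rpl39l at 0.12 and Nr0b1 at 0.16, an orphan nuclear receptor of ES cells, and nearest to Pramel6 were 2410137M14Rik at 0.33 and Prdm14 at 0.36, a regulator of naive pluripotency and germ cells.

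For Dppa5a the nearest were Pigyl at 0.11 and Trib3 at 0.13, for Dppa4 Hspa1b at 0.10 and Zfp770 at 0.13, and for Dppa2 Tmem62 at 0.225 and Slc25a10 at 0.228. The nearest genes were farther from Khdc1a and Obox6. These members also varied most, with SDs of log2 CPM of 3.96 and 3.22 against 0.34 for Dppa4. The distances are not scaled by that variation. Srarp at 0.56 and Bhmt, a methyltransferase that makes methionine from betaine, at 0.65 were nearest to Khdc1a, and both were, like it, highest with dTAG (means of 74.7 and 54.8 CPM) and close to 0 without LIF (0.111 and 0.0427 CPM). Accsl at 0.67 and Bst1 at 0.79 were nearest to Obox6.

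Several members lie side by side. On chromosome 16 Dppa4 is followed by Dppa2, on chromosome 9 Dppa5a is followed by Ooep, on chromosome 2 Pramel7 by Pramel6, and on chromosome 7 Obox6 lies between Obox5 and Crx. The neighbours were taken by position after the members' values had been seen: 24 genes that are no members lie within 2 genes of one, and 9 of them were tested. Morc1, next to Dppa2 and needed for silencing transposons in male germ cells, had 1104 reads with dTAG and 4695 with DMSO (log2 fold change -2.06, SE 0.07, edgeR adjusted p = 9.5e-19), and 283 without LIF and 5977 with LIF (log2 fold change -4.34, SE 0.08, edgeR adjusted p = 1.5e-24). Dppa2, beside it, was slightly higher in both comparisons.

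Ddx43, an RNA helicase gene next to Ooep, fell with dTAG (log2 fold change -0.92, SE 0.15, edgeR adjusted p = 2.0e-05) and without LIF (log2 fold change -1.56, SE 0.16, edgeR adjusted p = 4.1e-09), as Dppa5a and Ooep were lower. Gsta2, on the other side of Dppa5a, had 10 reads with dTAG and 21 with DMSO, and 0 without LIF and 23 with LIF. Nectin3, an adhesion gene on the other side of Dppa4, rose without LIF (log2 fold change 0.72, SE 0.08, edgeR adjusted p = 4.3e-09) and had -0.20 with dTAG (SE 0.09, edgeR adjusted p = 0.069). Around Khdc3, Rsl24d1 fell with dTAG (log2 fold change -0.55, SE 0.08, edgeR adjusted p = 2.0e-06) and rose without LIF (0.30, SE 0.07, edgeR adjusted p = 0.00074, and 0.051 without WT no LIF replicate 1), and Pigbos1 rose without LIF (0.92, SE 0.23, edgeR adjusted p = 0.0010).

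RefSeq promoter windows were at hand for 4 members, all lower in both comparisons: Khdc3, Pramel7, Pramel6 and Ooep. The 250 bases before each start are shown because Khdc3 and Pramel7 were the closest pair Pramel6 and Pramel7 the next, and Ooep was lower in both comparisons as well. They were read in the direction of the gene from build GRCm38.p6, at chr9:73102148-73102397 (plus strand) for Khdc3, chr2:87492419-87492668 (minus) for Pramel7, chr2:87506315-87506564 (plus) for Pramel6 and chr9:78378589-78378838 (minus) for Ooep. Capitals mark the SOX core.
Khdc3: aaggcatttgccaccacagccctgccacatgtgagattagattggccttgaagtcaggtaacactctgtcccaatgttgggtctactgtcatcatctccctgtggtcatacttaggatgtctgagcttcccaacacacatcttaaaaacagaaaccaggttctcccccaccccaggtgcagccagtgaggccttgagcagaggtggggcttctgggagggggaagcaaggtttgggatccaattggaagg
Pramel7: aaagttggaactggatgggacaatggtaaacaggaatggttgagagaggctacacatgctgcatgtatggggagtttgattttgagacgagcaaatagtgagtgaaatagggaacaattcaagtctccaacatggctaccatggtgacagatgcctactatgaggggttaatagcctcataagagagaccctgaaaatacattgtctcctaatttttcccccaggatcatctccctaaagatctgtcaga
Pramel6: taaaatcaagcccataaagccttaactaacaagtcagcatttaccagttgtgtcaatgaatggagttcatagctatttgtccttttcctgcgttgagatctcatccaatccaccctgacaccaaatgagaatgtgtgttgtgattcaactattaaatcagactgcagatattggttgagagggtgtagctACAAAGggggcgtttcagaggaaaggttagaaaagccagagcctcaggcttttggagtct
Ooep: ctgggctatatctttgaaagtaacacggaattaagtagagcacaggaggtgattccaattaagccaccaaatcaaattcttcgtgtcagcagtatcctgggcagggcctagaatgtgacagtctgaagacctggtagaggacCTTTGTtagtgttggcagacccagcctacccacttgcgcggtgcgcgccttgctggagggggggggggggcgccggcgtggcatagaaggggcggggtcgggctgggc

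For 4 short motifs, matches were searched on both strands of the 300-base windows, which run from 250 bases before to 50 after the start. The octamer ATGCAAAT, the core of OCT4 sites, was in 1.74% of all 32851 RefSeq windows, and the STAT core TTCCNGGAA, the kind of site that the LIF-activated factor STAT3 reads, in 1.15%. The KLF core GGGTGTGG was in 3.56% and the SOX core ACAAAG in 18.7%. The SOX core was found in Pramel6, starting 60 bases before the start, and in Ooep, 108 bases before it on the opposite strand. No other match was found in these 4 windows, which says nothing about sites elsewhere or about any factor.

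Genes related to the members by family or by use were read next, from lists of 77 genes of which 31 could be tested, and 35 of the others had under 10 reads in all. With dTAG 7 rose and 15 fell, where 40.5% of all genes tested passed the same test in either direction, and the median log2 fold change was -0.87 against 0 for all genes. Without LIF 9 rose and 15 fell, where 68.4% of all genes passed, with a median of -0.20 against -0.02. The difference between the responses passed for 23 of the 31, where 55% of all genes passed.

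Of 8 tested genes of the maternal complex list, which holds genes of the subcortical complex, their oocyte partners and the Khdc1 copies, 2 rose and 2 fell with dTAG and 4 fell without LIF. Nlrp4f, an NLR family gene of the oocyte, had 70.6 and 69.8 CPM with dTAG and 121 and 135 CPM with DMSO (log2 fold change -0.87, SE 0.08, edgeR adjusted p = 3.7e-10). It had 23.0 and 25.4 CPM without LIF and 123 and 115 CPM with LIF (log2 fold change -2.31, SE 0.09, edgeR adjusted p = 2.8e-18), so it moved as Khdc3 and Ooep did. Padi6, a subunit of the same complex, had 1.75 and 2.00 CPM with dTAG and 0.842 and 1.06 CPM with DMSO and did not pass, and it fell without LIF to 0.0854 and 0.273 CPM against 1.68 and 1.06 CPM with LIF (3 and 28 reads, a ratio of 8.97 in favour of LIF with a 95% interval of 2.77 to 46.1 from counting error; edgeR adjusted p = 0.00029). The genes that rose with dTAG were Khdc1b and Khdc1c, and the call of Khdc1b is a description only, as stated above. The call of Nlrp9b, which fell with dTAG, was lost in DESeq2 and without dTAG replicate 1 or DMSO replicate 2 (adjusted p up to 0.47). Nlrp5 and Tle6, the other core subunits on the list, had 1 and 4 reads in all. They have 5 and 4 accessions, so their level cannot be read here.

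Of 3 tested PRAME-like genes, 2 fell in each comparison. Pramel14 had 4 reads with dTAG and 76 with DMSO (log2 fold change -4.16, SE 0.52, edgeR adjusted p = 2.5e-07) and 2 reads without LIF and 78 with LIF, a ratio of 37.5 in favour of LIF (95% interval 10.03 to 315, counting error only). Pramel7 was 3.51-fold lower with dTAG. Pramel13, the best counted of the family, fell with dTAG (log2 fold change -0.59, SE 0.06, edgeR adjusted p = 1.9e-08) and without LIF (-0.27, SE 0.06, edgeR adjusted p = 0.00039). Pramel1 passed in neither comparison, but was lower in OCT4-FKBP cells with DMSO than in WT cells with LIF (-0.98, SE 0.28, edgeR adjusted p = 0.0061), a call lost in DESeq2 and without DMSO replicate 2. PRAME-like genes have close copies, and 11 of the 17 listed had under 10 reads.

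Of the homeobox relatives Rhox6, Rhox9 and Crxos were tested. Rhox6 and Rhox9, X-linked homeobox genes of the reproductive tissues and placenta, rose with dTAG, with 25.8 and 23.0 CPM with dTAG and 5.19 and 5.02 CPM with DMSO for Rhox6 (log2 fold change 2.26, SE 0.15, edgeR adjusted p = 2.3e-12) and a log2 fold change of 2.44 for Rhox9 (SE 0.16, edgeR adjusted p = 2.6e-12). Without LIF they rose by 5.52 (SE 0.17, edgeR adjusted p = 4.1e-20) and 4.63 (SE 0.16, edgeR adjusted p = 4.9e-19), while Obox6 was lower there. Crxos, which follows Crx beyond Obox6, had 42 reads with dTAG and 77 with DMSO (log2 fold change -0.84, SE 0.30, edgeR adjusted p = 0.028). That call was lost in DESeq2 and without dTAG replicate 2 or DMSO replicate 2. It had 0 reads without LIF and 65 with LIF, at least 20.8-fold lower. Crxos has 4 accessions, and reads that fit several of them are not counted.

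All 13 tested genes of the ES cell restricted list passed in both comparisons, 3 up and 10 down with dTAG and 5 up and 8 down without LIF. Among all genes tested 40.5% passed with dTAG and 68.4% without LIF. The list was chosen with earlier results of these data known, so 13 of 13 is a description only. The dTAG call of Tex19.1 (edgeR adjusted p = 0.038) was lost in DESeq2, with raw library totals and without dTAG replicate 1, DMSO replicate 1 or DMSO replicate 2 (adjusted p up to 0.38). The LIF call of Gdf3 (edgeR adjusted p = 0.0047) was lost in DESeq2 and without WT LIF replicate 2 (adjusted p up to 0.18). Jam2, an adhesion protein, fell with dTAG (log2 fold change -4.02, SE 0.07, edgeR adjusted p = 7.3e-24) and without LIF (-5.57, SE 0.09, edgeR adjusted p = 1.3e-25). Tdgf1, a co-receptor of Nodal, and L1td1, an RNA-binding protein, fell with dTAG (log2 fold changes -3.59 and -2.60, edgeR adjusted p = 1.3e-22 and 2.1e-20) but rose without LIF (0.68 and 1.24, edgeR adjusted p = 2.2e-10 and 1.5e-15). Fbxo15 and Zfp42 (Rex1) fell without LIF (log2 fold changes -3.43 and -2.78, edgeR adjusted p = 2.0e-24 and 3.9e-23) and with dTAG (-0.81 and -1.12, edgeR adjusted p = 4.7e-12 and 3.7e-15). Utf1 fell with dTAG and rose without LIF (log2 fold changes -2.75 and 2.08), with a difference of -4.83 (SE 0.13, edgeR adjusted p = 1.0e-20).

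Of the 2-cell list, genes that DPPA2 and DPPA4 promote in mouse ES cells among them, 4 of 16 could be tested and none passed with dTAG in edgeR, with 0 of the 4 at an unadjusted p under 0.05 and 0 called by DESeq2. They had 1 to 8 reads with dTAG and 3 to 9 with DMSO, so their log2 fold changes have SEs of 0.68 to 1.43. Zscan4d and Usp17le reached the filter on low counts only through the libraries without LIF. Their higher values there are therefore a description only. Zscan4d, of a family of near-identical copies that mark 2-cell-like cells, had 2.30 and 2.32 CPM without LIF and 0.265 and 0.471 CPM with LIF (log2 fold change 2.66, SE 0.54, edgeR adjusted p = 0.00011). Usp17le, a deubiquitinase gene of a repeated family, had 2.30 and 1.23 CPM without LIF and 0.530 and 0.471 CPM with LIF (log2 fold change 1.86, SE 0.51, edgeR adjusted p = 0.0024), a call lost in DESeq2 and without WT no LIF replicate 1 (adjusted p up to 0.17).

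**Figure D4:**
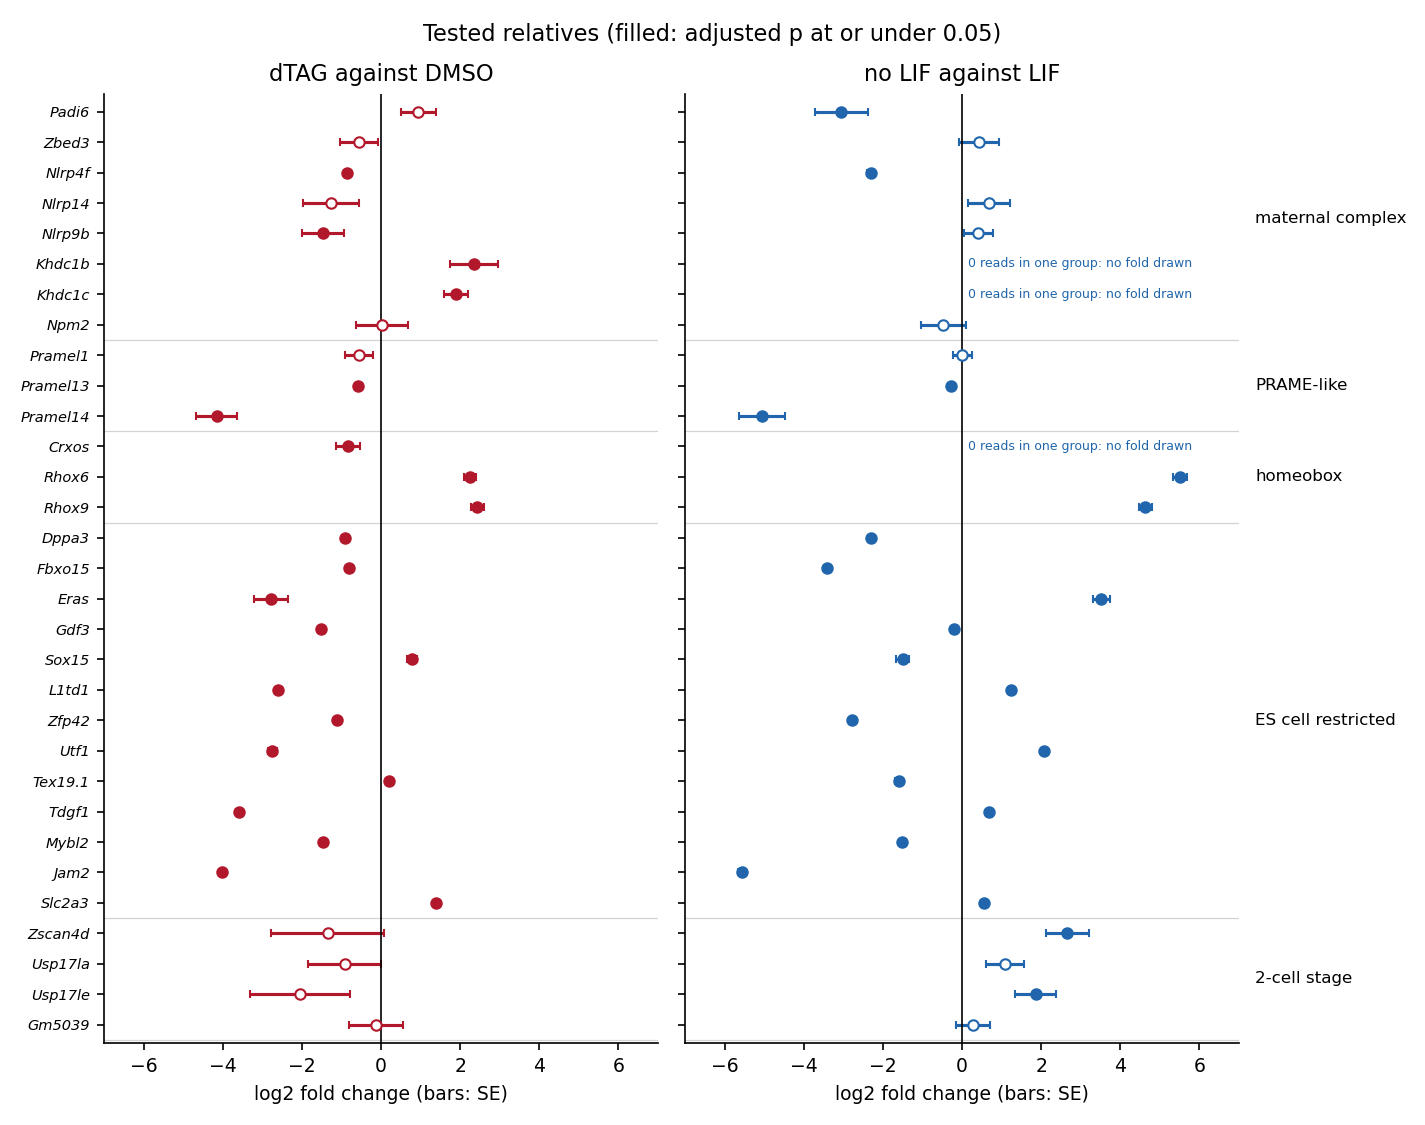
Log2 fold change with SE (x axis) of the 31 tested relatives, by list, for dTAG against DMSO (left) and no LIF against LIF (right); filled points passed at an adjusted p of 0.05, and genes with 0 reads in a group have no point. Rhox6 and Rhox9 lie to the right in both panels, Jam2 and Pramel14 far to the left in both, and Tdgf1, L1td1 and Utf1 on opposite sides.

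Between the lines, 11 of the relatives were higher and 3 lower in OCT4-FKBP cells with DMSO than in WT cells with LIF, where 40.6% of all genes passed. Khdc1c was higher, as Khdc1a was (log2 fold change 2.26, SE 0.53, edgeR adjusted p = 0.0015). Rhox6 was higher too (2.00, SE 0.27, edgeR adjusted p = 2.0e-06), and so was Rhox9 (0.94, SE 0.26, edgeR adjusted p = 0.0053), a call lost without DMSO replicate 2 or WT LIF replicate 1. Slc2a3, a glucose transporter, was higher by 0.57 (edgeR adjusted p = 6.1e-09) and Gdf3, a TGF-beta family ligand, by 0.55 (edgeR adjusted p = 3.2e-08).

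Markers of other cell types were read in the same comparisons. The summed level of 12 trophoblast genes was 273 and 254 CPM with dTAG and 80.9 and 84.1 CPM with DMSO, and 1522 and 1414 CPM without LIF and 56.8 and 61.3 CPM with LIF, with Gata3 at 0 reads throughout. Of the 9 of them tested, 4 rose and 2 fell with dTAG, and 6 rose and 3 fell without LIF. Among all genes tested 40.5% passed with dTAG and 68.4% without LIF. The counts of every marker list here and below stand beside those shares. Cdx2 held most of the dTAG sum (192 and 169 CPM), and Krt8 and Krt18 most of the sum without LIF. The 10 formative-stage genes summed to 492 and 462 CPM with dTAG and 102.2 and 107.6 CPM with DMSO, and to 2378 and 2354 CPM without LIF and 117 and 111 CPM with LIF. Lin28a alone held 470 and 443 CPM of the sum with dTAG and 81.7 and 87.9 CPM of that with DMSO, and of the 6 tested genes 1 rose and 2 fell with dTAG, while all 6 rose without LIF.

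The 10 primitive endoderm genes summed to 555 and 501 CPM with dTAG and 390 and 388 CPM with DMSO, and to 774 and 875 CPM without LIF and 427 and 371 CPM with LIF. Lamb1 had 430 and 384 CPM with dTAG and 63.6 and 60.5 CPM with DMSO, whereas Lama1 had 95.7 and 91.6 CPM with dTAG and 322 and 321 CPM with DMSO. Of the 5 tested, 3 rose and 1 fell with dTAG, and 3 rose and 2 fell without LIF. The 9 fibroblast genes summed to 659 and 630 CPM with dTAG and 482 and 463 CPM with DMSO, and to 1012 and 973 CPM without LIF and 336 and 331 CPM with LIF. Vim held 637 and 612 CPM of the sum with dTAG and 457 and 439 CPM of that with DMSO. Without LIF Vim had 100.1 and 102.8 CPM against 324 and 320 CPM with LIF, and Tagln 763 and 725 CPM against 2.12 and 1.76 CPM with LIF. Of the 7 tested fibroblast genes 2 rose and 1 fell with dTAG (median log2 fold change -0.33), and 5 rose and 1 fell without LIF. With dTAG that is close to the 40.5% of all genes that passed. The part of these cell types in the members' changes was not tested.

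Markers of oocytes were low in every library. The 10 on the list summed to 9.63 and 8.10 CPM with dTAG and 20.8 and 20.9 CPM with DMSO, and to 5.29 and 5.05 CPM without LIF and 17.2 and 15.6 CPM with LIF. Of the 3 tested, 1 rose and 2 fell with dTAG, and 1 rose and 2 fell without LIF, where 40.5% and 68.4% of all genes passed. Zp3 gave 6.35 and 6.21 CPM of the sum with dTAG and 17.1 and 16.9 CPM with DMSO. Ddx4 went the other way, at 1.75 and 0.998 CPM with dTAG against 0.14 and 0.704 CPM with DMSO. It was also higher without LIF, at 3.67 and 3 CPM against 0.265 and 0.353 CPM with LIF. Gdf9 stood under 1 CPM in each library, and Oosp1 had 0 reads.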

How the data were processed

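Poly(A) RNA of 8 libraries was read from one end with a strand-marking kit, per the labels' protocols. Each deposited table holds raw counts of reads by RefSeq accession for 1 library, and HISAT2, HTSeq and mm9 are named without versions, per the submitters' processing notes. The counter's strand setting is not known here, so overlapping antisense genes may share reads. Reads that fit several accessions (42.5% of counted plus ambiguous reads), alignments marked as not unique (44.5% to 46.7% of alignments per library) and reads without a feature are separate lines and were kept out of library sizes.

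Accessions were named through RefSeq (41325) and GENCODE (126), 114 stayed unnamed, and counts were summed per symbol. Genes passing edgeR's filterByExpr were fitted with the 4 groups in one model (R 4.3.3, edgeR 4.0.16, TMM library sizes, quasi-likelihood F-test, Benjamini-Hochberg over all genes tested, call at 0.05); SEs were derived from the fold change and the F statistic. The design had assumed counts per gene. A gene with few reads can pass the filter only through the group where it is high. Its call there is then a description only. The scripts were tested on simulated data.

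The members and the lists of relatives and markers were chosen with earlier results of these data known. Named genes are all members, per list and comparison the 3 genes of smallest adjusted p among those called, and the 2 genes nearest each member; Nlrp9b, Pramel1 without a call in a comparison, Tex19.1, single marker genes, genes with few reads and the neighbours were named after their values were seen. Floors are 3 reads over a group, and floors and the intervals of read ratios cover counting error only. The 95% intervals of log2 fold changes and of their difference were taken from the SE with 4 residual degrees of freedom. Replicate numbers paired no samples: the labels give no pairing, and deviations of same-numbered libraries correlated at -0.037 (dTAG and DMSO) and 0.053 (no LIF and LIF). Replicate libraries differed beyond sampling noise (chi-square 1.85 to 4.94 per degree of freedom). Alternatives were DESeq2 1.42.0 as a test and as size factors, other filters, single accessions, raw totals, the 4 libraries of a comparison alone, a replicate block, and each library left out.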

Additional observations from a re-analysis of the deposited data

How the results depend on the processing

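Counts of members at least 2-fold apart, and of relatives and genes called, stayed within 1.5 times under every alternative that gave a value. For dTAG against DMSO, Pramel6 was not tested at 5 CPM in 2 libraries, with the 4 libraries alone, with single accessions or among genes with 1 accession. The 6 members lower with dTAG were then 5, 5, 5 and 4. With a replicate block, 22 relatives and 4214 genes were called for dTAG against DMSO and 7082 genes for no LIF against LIF, close to the 22, 4175 and 7056 without it. Of 581 member fold changes recomputed under an alternative, 567 moved by less than the spread between replicates, 14 by more, and none that was 2-fold apart changed sign. When a group of 2 loses 1 library, its mean moves by less than that spread almost by construction. Leaving out a library of another group hardly moves the value. The settings that leave out a library are therefore a weak check. Of 36 member values, 4 changed sign somewhere, each near 0: Dppa4 in the LIF and line comparisons, Pramel6 between the lines and Dppa2 in the difference of responses. The cause was not tested. Low counts limit Pramel6 (0 to 17 reads in a library) and Dppa4, and reads that fit several of their accessions are not among those counted. They also limit every gene with 0 reads without LIF, whose fold changes are bounds. With 2 libraries a group and 4 residual degrees of freedom, the adjusted p-values of the relatives rest on a spread shared over the 4 groups.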
